A study of Danio rerio with 2 samples.

Results

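The 9 genes described here, elavl3, elavl4, stmn1b, gng3, neurod4, isl1, onecut1, tlx3b and ebf2, are genes of neuronal differentiation, and they were chosen by name among the 27771 genes of the tables. Each name matched 1 row, and each row had UMIs in both libraries. The genes were followed through the tailbud, the posterior end of the embryo, of stag2b(nz207) mutant (stag2b-/-) and wild-type zebrafish at 16 hpf (16-somite stage). Stag2b is a subunit of cohesin, the ring-shaped complex that holds sister chromatids together and shapes gene expression, and the study asked how changing cohesin composition alters cell populations and transcription in the tailbud. Dissected tailbuds were pooled by genotype, dissociated and sequenced as single cells (10x Genomics), in which each transcript molecule is counted by a unique molecular identifier (UMI). There was 1 library per genotype, so no test between genotypes was possible, and the intervals below are 95% intervals for counting error alone. The wild-type sample is labelled AB and the other stag2b NZ207, although the study's methods name another wild-type strain. Homozygous mutants are viable, and the labels give no sex, clutch or embryo for any cell.

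Neurons arise from dividing neural progenitors that carry SoxB1 factors. Proneural factors start differentiation and raise Delta ligands, which hold neighbouring cells back through Notch, and committed cells leave the cell cycle and switch on RNA-binding proteins, cytoskeletal regulators and subtype factors. Among the 9 genes, neurod4 encodes a bHLH factor that acts after the proneural step. The transcription factor ebf2 acts in the passage to postmitotic neurons. The homeodomain factors isl1 and tlx3b are known from Rohon-Beard cells, the early sensory neurons of the dorsal spinal cord, and isl1 also from motor neurons. onecut1 encodes another transcription factor of developing neurons. elavl3 (HuC) and elavl4 (HuD) encode neuronal RNA-binding proteins, stmn1b encodes a stathmin that regulates microtubules, and gng3 encodes a G protein gamma subunit of neurons.

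The stag2b mutant library held 393322847 UMIs over 26360 barcodes and the wild-type library 303216340 UMIs over 18704 barcodes, with 125 barcode sequences in both. After filtering, 23477 stag2b mutant and 17544 wild-type cells passed, and their median depth was 13282 UMIs in stag2b mutant and 15333.5 UMIs in wild type. The targeted gene, stag2b, stood at 59.5 CPM (UMIs per 1000000 UMIs of all genes) in the stag2b mutant library and 108 CPM in the wild-type library, a log2 ratio of -0.85. Scrublet called 8.61% of stag2b mutant and 3.03% of wild-type cells as doublets.

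Cells were sorted into 11 classes by raw UMIs of marker genes, none of them among the 9. A neuron had a UMI of at least 3 of 12 neuronal genes (such as gap43, stxbp1a and mllt11), a neuronal precursor at least 2 of neurog1, insm1a, insm1b, nhlh2, scrt2, dlb and myt1b, and a neural progenitor at least 3 UMIs of sox2, sox3 and sox19a with at most 1 UMI of mesodermal tbxta, tbx16 and msgn1. The gates were taken in this order, so a precursor was not a neuron and a neural progenitor was neither. The neuron class held 228 stag2b mutant cells, 0.971% of those kept (exact binomial interval 0.850 to 1.10), and 191 wild-type cells, 1.09% (0.940 to 1.25). Neuronal precursors were 481 stag2b mutant cells (2.05%, 1.87 to 2.24) and 497 wild-type cells (2.83%, 2.59 to 3.09), and neural progenitors were 2760 and 1993 cells (11.8% and 11.4%). The order of the neuron shares turned under other gates, and the values are in the closing section.

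The neuron gate was not pure, and its content differed between the libraries. Cells that also passed a gate for another tissue were set aside as mixed: 199 of 427 cells in the stag2b mutant library and 95 of 286 in the wild-type library. These mixed cells of all classes held between 23.8% (onecut1) and 38.0% (elavl4) of the UMIs of each of the 9 genes in the stag2b mutant library, against 14.8% (onecut1) to 21.1% (tlx3b) in the wild-type library. Outside the neural classes, snap25a, a gene of the neuron gate, was detected in 7.43% of stag2b mutant and 0.420% of wild-type cells. The genes of the neuron gate did not all lean this way. stmn4 was found there in 6.91% of stag2b mutant and 4.79% of wild-type cells, but rtn1b in 1.03% and 3.06% and isl2a in 5.82% and 7.98%. Stage genes differed too: within gated neurons, mki67, a marker of cycling cells, stood at 163 CPM in stag2b mutant and 85.2 CPM in wild type, and sox3 at 158 and 79.3 CPM. The part of these differences in the genotype comparisons of the 9 genes was not tested, and the comparison in neurons is also given within a narrower set of sensory neurons.

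The 9 genes marked neurons sharply against neural progenitors in both libraries. Of the 9, 8 reached 50 CPM in neurons, and all 8 were at least 1.5-fold higher there than in neural progenitors in each library. Except for elavl3 in stag2b mutant, each of the 8 passed 50 CPM only through neurons, so the filter set its direction and the count is a description. Among all genes at 50 CPM or more in the higher class, 25.3% in stag2b mutant and 29.5% in wild type were higher in neurons by that fold. These shares also count genes that passed the filter through neural progenitors. The median log2 ratio of neurons over neural progenitors among the 8 genes was 7.50 in stag2b mutant and 7.81 in wild type, whereas the medians over all genes were 0.02 and 0.06. onecut1 stayed out of these counts: it had 21 UMIs among all kept stag2b mutant cells and 27 among all kept wild-type cells.

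**Figure D1:**
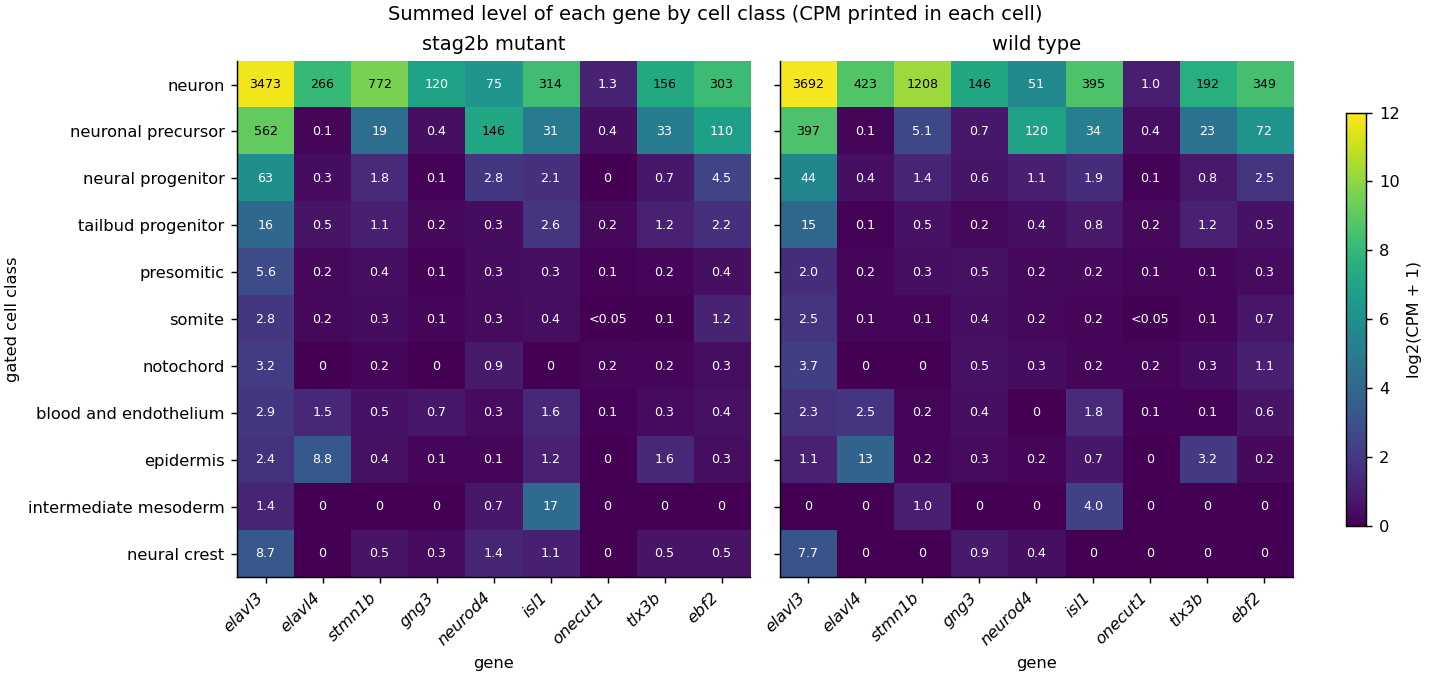
Level of each of the 9 genes (columns) in each gated cell class (rows), as CPM printed in the cell and log2(CPM + 1) in colour, in the stag2b mutant library (left) and the wild-type library (right). elavl3 stands at 3473 and 3692 CPM in neurons and under 20 CPM in each class outside the 3 neural ones, and neurod4 is highest in neuronal precursors.

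The RNA-binding protein genes separated from each other across the 3 neural classes. elavl3 stood at 3473 CPM in stag2b mutant neurons, 562 CPM in their neuronal precursors and 63.0 CPM in their neural progenitors. In wild type the elavl3 levels were 3692, 397 and 44.4 CPM in the same classes. elavl3 was present at each step, 8.93-fold higher in neuronal precursors than in neural progenitors in both libraries. It was 1 of 3 members at 50 CPM or more in precursors, with neurod4 and ebf2, and all 3 were at least 1.5-fold higher there than in neural progenitors, where 5.32% of genes in stag2b mutant and 7.11% in wild type were. Except for elavl3 in stag2b mutant, these members passed 50 CPM through precursors alone, so the filter set their direction. elavl4 stood at 266 CPM in stag2b mutant neurons and 423 CPM in wild-type neurons, but gave 1 UMI in 481 stag2b mutant and 1 UMI in 497 wild-type neuronal precursors. gng3 had the same shape, with 120 CPM in stag2b mutant and 146 CPM in wild-type neurons against 3 and 6 UMIs in their neuronal precursors. elavl4 and gng3 were thus almost confined to the neuron gate among the 3 neural classes. Cells that passed the neuron gate were taken out of the precursors, so this confinement is in part set by the gates. Within neurons both genes stood mainly in the sensory cells described below, so stage and subtype cannot be told apart here.

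The stathmin gene stmn1b was already found in some precursors. It stood at 772 CPM in stag2b mutant neurons and 19.5 CPM in their neuronal precursors, a 39.6-fold step (33.4 to 47.3). In wild type it stood at 1208 CPM in neurons and 5.14 CPM in neuronal precursors, a 235-fold step (174 to 327). The level in precursors was above that in neural progenitors in each library (1.76 CPM in stag2b mutant and 1.36 CPM in wild type).

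The transcription factor genes were already raised in precursors. ebf2 stood at 303, 110 and 4.46 CPM in neurons, neuronal precursors and neural progenitors of stag2b mutant, and at 349, 71.9 and 2.55 CPM in those of wild type. isl1 stood at 314, 31.1 and 2.12 CPM in the stag2b mutant classes and at 395, 34.5 and 1.91 CPM in the wild-type classes. tlx3b stood at 156, 33.1 and 0.706 CPM in the stag2b mutant classes and at 192, 22.8 and 0.765 CPM in the wild-type classes. Each of these 3 genes stood higher at each step from progenitor to precursor to neuron in both libraries, with counting intervals that did not overlap.

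Among the 3 neural classes, neurod4 alone of the 8 genes was highest in neuronal precursors. It stood at 146 CPM in stag2b mutant precursors, 74.9 CPM in neurons and 2.82 CPM in neural progenitors. In wild type it stood at 120, 51.3 and 1.06 CPM in the same classes. The log2 ratio of neurons over precursors for neurod4 was -0.96 (-1.17 to -0.75) in stag2b mutant and -1.22 (-1.47 to -0.97) in wild type, whereas the other 7 genes were at least 1.5-fold higher in neurons. Of these 7, only elavl3 and ebf2 were at 50 CPM or more in both classes, so the filter set the direction of the rest. Over all genes at 50 CPM or more, 19.3% were higher and 17.4% lower in neurons than in precursors by that fold in stag2b mutant, and 24.0% and 22.9% in wild type. The neuron value of neurod4 is that of a mostly sensory class, with 35.3 CPM in stag2b mutant and 26.0 CPM in wild-type sensory cells. In neurons of no subtype neurod4 stood at 109 and 106 CPM, and in the few motor cells at 1331 and 351 CPM, above the precursors.

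Detection per cell gave the same picture at equal depth. Each cell was thinned to 5000 UMIs, which left out 55 of 228 stag2b mutant and 42 of 191 wild-type neurons as too shallow. A UMI of elavl3 was found in 74.6% of thinned neurons (67.4 to 80.9), 59.2% of precursors and 19.7% of neural progenitors of stag2b mutant. In wild type it was found in 82.6% of neurons (75.5 to 88.3), 49.8% of precursors and 14.3% of neural progenitors. Without thinning elavl3 was found in 86.4% of neurons in each library, where the median depths were 14169.5 UMIs in stag2b mutant and 17042 UMIs in wild type. Somite cells, which should lack elavl3, gave 1.29% in stag2b mutant and 0.924% in wild type after thinning, at median depths of 14153 and 17500 UMIs before it. The elavl3 shares in neural progenitors were thus well above the level in somite cells.

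Many gated neurons had several of the 9 genes, and no thinned neuron had more than 7. In thinned neurons the median cell had 5 of the 9 genes in each library. At least 3 of the genes were found in 117 of 173 stag2b mutant neurons (67.6%, 60.1 to 74.5) and 112 of 149 wild-type neurons (75.2%, 67.4 to 81.9), intervals that overlap. This share depended on the gate: it was 28.9% in stag2b mutant and 44.0% in wild type with a gate of at least 2 genes and 16.7% and 21.6% with neurons gated by elavl3, and the order of the libraries turned with a gate of at least 4 genes (96.2% and 92.3%) and in sensory neurons (93.1% and 89.8%). In neuronal precursors 26.9% of stag2b mutant cells (22.9 to 31.3) and 21.2% of wild-type cells (17.6 to 25.2) had at least 3. In neural progenitors this share was 0.491% in stag2b mutant and 0.162% in wild type, and 17.9% and 13.3% of the cells had elavl3 and none of the other 8 genes. Outside the neural classes, 0 of 8113 stag2b mutant and 0 of 4977 wild-type somite cells had 3 or more (upper bounds 0.0455% and 0.0741%), and 1 wild-type presomitic cell was the exception among all 8 other classes of both libraries.

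**Figure D2:**
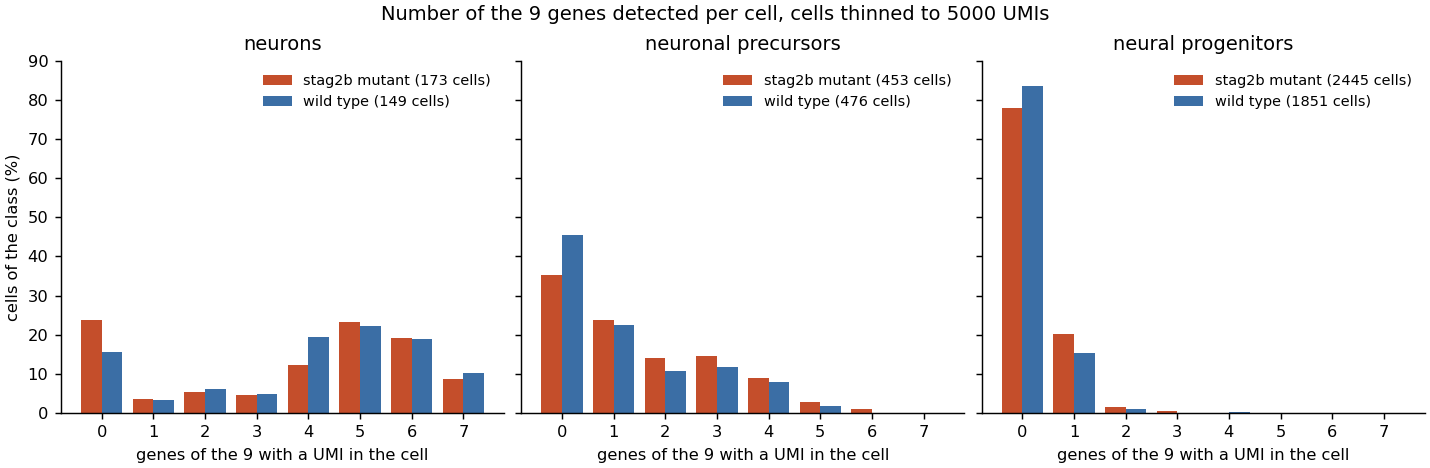
Share of cells (y axis, percent of the class) by the number of the 9 genes with a UMI (x axis) after thinning to 5000 UMIs, in stag2b mutant (red) and wild type (blue). Neurons form a group at 4 to 7 genes and another at 0, with 23.7% of stag2b mutant and 15.4% of wild-type cells at 0.

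Thinned neurons fell into a group with many of the genes and a group with none. After thinning, none of the 9 genes was found in 41 stag2b mutant neurons (23.7%) and 23 wild-type neurons (15.4%). The median depths of these cells before thinning were 16242 and 19236 UMIs. In stag2b mutant they outnumbered all gated neurons that lacked elavl3 at full depth, so some of them had elavl3 before thinning. In wild type some may have had a UMI of the genes at full depth. Levels and shares of other genes in these cells were taken before thinning. These cells carried the proliferation gene mki67 at 410 CPM in stag2b mutant and 341 CPM in wild type, against 70.0 and 29.4 CPM in neurons with at least 3 of the genes. In the stag2b mutant library 58.5% of the cells with none had a UMI of stmn4 and 26.8% a UMI of snap25a, and in the wild-type library 30.4% had stmn4 and 0 of 23 had snap25a. In cells with at least 3 of the 9 genes, stxbp1a, a syntaxin-binding protein of synaptic vesicle release, was found in 84.6% of stag2b mutant and 92.0% of wild-type cells, and against this in 22.0% and 43.5% of cells with none. isl2b was found in 74.4% of stag2b mutant and 77.7% of wild-type cells with at least 3, against 34.1% and 73.9% of cells with none, and so hardly separated these cells in wild type.

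Pairs of the genes within neurons set elavl4 and gng3 apart from neurod4. Of thinned neurons with elavl4, 50 of 51 in stag2b mutant and 51 of 51 in wild type also had stmn1b. gng3 was found in 62.7% of stag2b mutant neurons with elavl4 and 8.20% of those without it, and in 70.6% and 9.18% of the wild-type neurons. By contrast, 2 of 37 stag2b mutant neurons with neurod4 (5.41%) had elavl4, against 36.0% of those without neurod4. In wild type 2 of 22 neurons with neurod4 (9.09%) had elavl4, against 38.6% of those without it. stmn1b took a middle place, since it was found in 21 of 37 stag2b mutant and 11 of 22 wild-type neurons with neurod4.

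The subtype factors overlapped with each other and with ebf2. Of thinned neurons with tlx3b, 58 of 67 in stag2b mutant (86.6%) and 58 of 66 in wild type (87.9%) also had isl1. ebf2 was found in 86 of 98 stag2b mutant (87.8%) and 76 of 97 wild-type neurons (78.4%) with isl1. In neuronal precursors ebf2 went with neurod4: it was found in 69.1% of stag2b mutant precursors with neurod4 and 10.6% of those without, and in 59.1% and 8.88% of the wild-type precursors. In neurons and neuronal precursors elavl3 was found in most cells with any other member, such as 136 of 152 stag2b mutant and 116 of 127 wild-type precursors with neurod4.

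**Figure D3:**
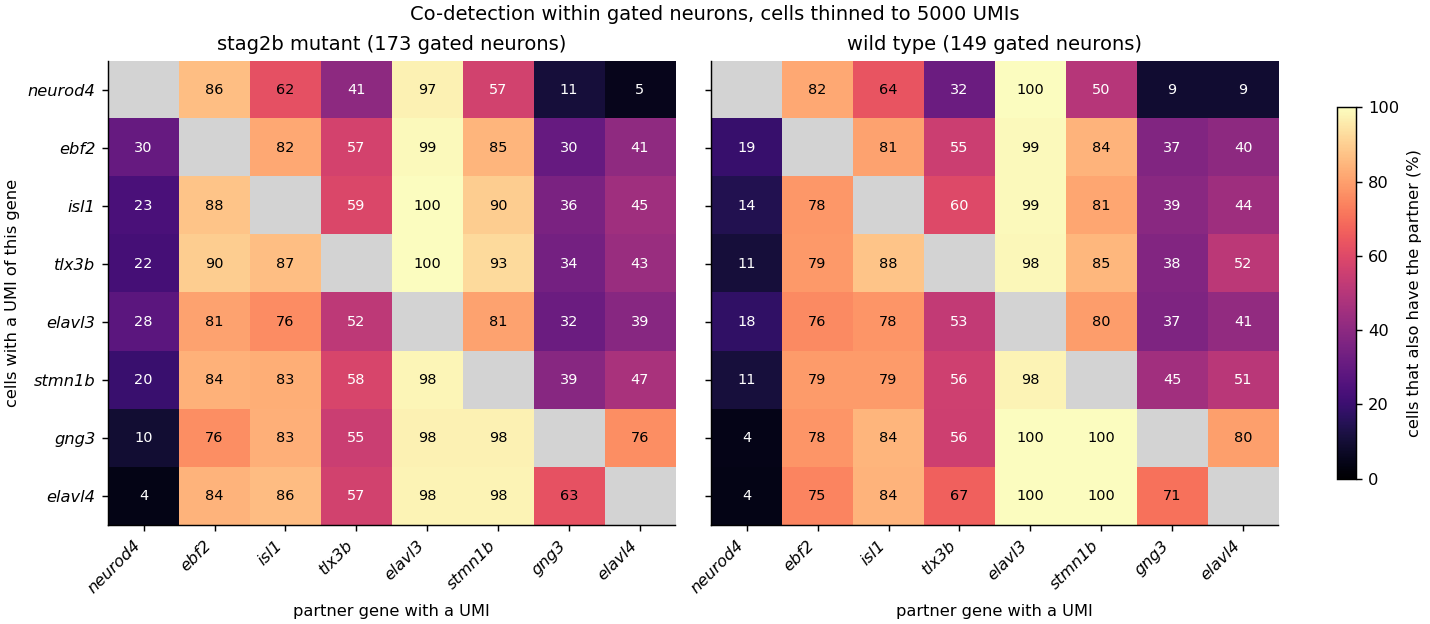
Co-detection in gated neurons thinned to 5000 UMIs, stag2b mutant left and wild type right. Each row takes the neurons with a UMI of the named gene, each column gives the percent of them that also had the partner, and neurod4 and elavl4 are seen to share few cells (5% and 9% of neurons with neurod4).

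Cells with 5 or more of the 9 genes carried fewer transcripts of the cell cycle than cells with none. All thinned cells of the 3 neural classes were pooled and grouped by the number of the 9 genes found. mki67, which no gate used, stood at 378 CPM in stag2b mutant cells with none of the genes, 402 CPM in cells with 1, 298 CPM in cells with 2 and 71.2 CPM in cells with 5 or more. In wild type it stood at 339, 388, 242 and 52.4 CPM in the same groups, so that it was highest in cells with 1. The replication gene pcna, also outside the gates, stood at 811, 716, 460 and 59.6 CPM in stag2b mutant and 1104, 987, 597 and 57.1 CPM in wild type. The Delta ligand gene dla was highest in between, at 1041 CPM in stag2b mutant and 915 CPM in wild-type cells with 3 to 4 of the genes, against 136 and 121 CPM in cells with none and 412 and 231 CPM in cells with 5 or more. cdkn1ca, an inhibitor of the cell cycle, stood at 149 CPM in stag2b mutant and 152 CPM in wild-type cells with none, at 793 and 1033 CPM in cells with 3 to 4, and at 790 and 786 CPM in cells with 5 or more. gap43, stxbp1a, dlb, neurog1 and sox19a in the plot of stage genes are gate genes, so their courses are in part set by the gates.

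**Figure D4:**
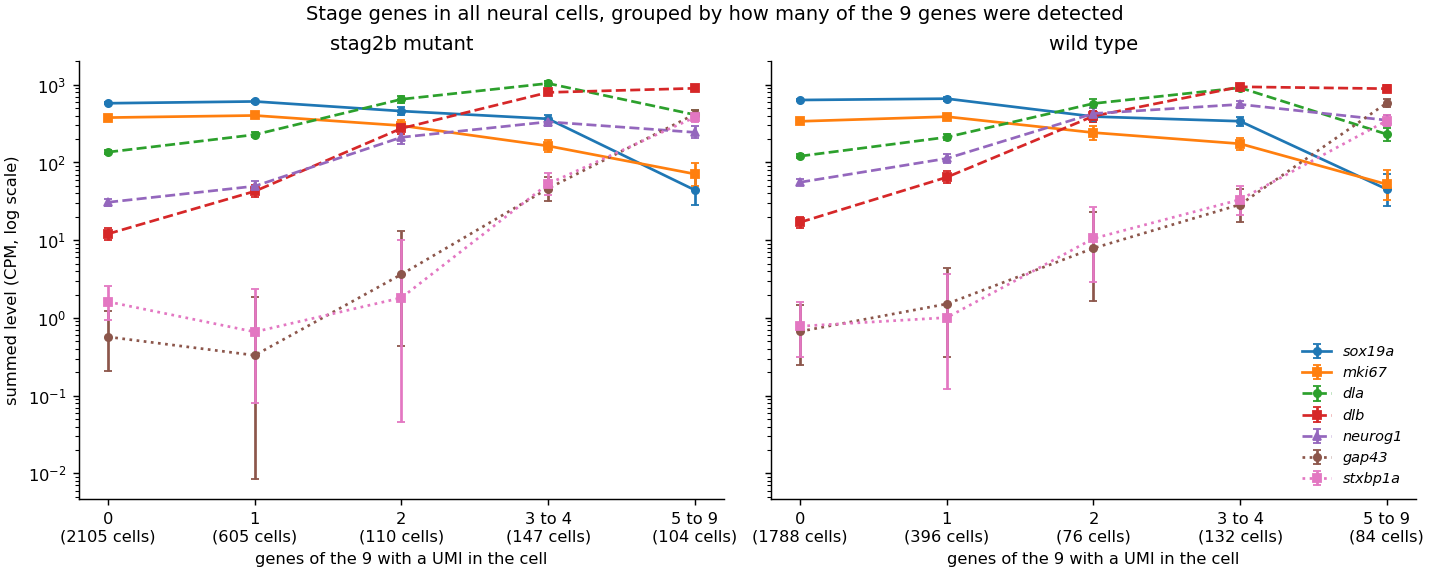
Summed level (CPM, log axis, bars for 95% Poisson intervals) of 7 stage genes in thinned cells of the 3 neural classes, grouped by how many of the 9 genes had a UMI, in stag2b mutant (left) and wild type (right). mki67 is lowest and gap43 and stxbp1a are highest in cells with 5 or more of the genes, and dla is highest in cells with 3 to 4.

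Other genes of neuronal differentiation followed the 9 in part. Of a list of 32 such genes, 30 were in the tables. In stag2b mutant, 22 of their rows reached 50 CPM in neurons or neural progenitors, 17 of which were at least 1.5-fold higher in neurons and 3 lower. In wild type 16 of 22 were higher and 4 lower. Among all genes at 50 CPM or more in the higher class, 25.3% in stag2b mutant and 29.5% in wild type were higher in neurons. The list holds genes of the neuron and precursor gates, such as isl2b, stmn4, neurog1 and insm1a, whose direction is in part set by the gates. For rows that passed 50 CPM through neurons alone the filter set the direction, so the counts are a description. neurod1, a bHLH factor related to neurod4, stood at 332 CPM in stag2b mutant and 458 CPM in wild-type neurons against 30.8 and 42.3 CPM in precursors, so that it was highest in neurons and not in precursors. stmn1a, a stathmin gene closely related to stmn1b, ran against it, at 319 CPM in neurons and 1001 CPM in neural progenitors of stag2b mutant and 240 and 1314 CPM in those of wild type. onecut2 stood at 125 and 124 CPM in stag2b mutant and wild-type neurons, where onecut1 gave 4 and 3 UMIs.

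Across the 11 classes of both libraries (22 points, which share 2 libraries and their gates), neurod1 had the course most like the mean log2(CPM + 1) of the 9 genes (Pearson r = 0.99). It was followed by zgc:158291 (0.98), map1aa (0.97), which encodes a microtubule-associated protein, and the intermediate filament genes vim (0.97) and nes (0.97), out of 2549 genes ranked. Ranked were genes at 50 CPM or more in neurons of both libraries, without the members and the gate genes. A level in neurons was thus a condition of entry. Among the 9 themselves, r with the mean of the other 8 lay between 0.73 for elavl4 and 0.97 for tlx3b and stmn1b.

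Most neurons of both libraries were of sensory type. By at least 2 UMIs of prdm14, drgx, isl2b and ntrk3a and at most 1 UMI of each other list, 138 of 228 stag2b mutant (60.5%, 53.9 to 66.9) and 128 of 191 wild-type neurons (67.0%, 59.9 to 73.6) were sensory. Motor neuron genes marked 3 cells in each library, interneuron genes 13 stag2b mutant and 10 wild-type cells, and no list 74 and 50 cells. isl2b is part of the neuron gate as well, so the gate favours sensory cells. elavl4 was almost confined to the sensory cells, which held 835 of its 840 UMIs in stag2b mutant neurons and 1253 of 1285 in wild-type neurons. gng3 stood at 186 and 199 CPM in sensory neurons of stag2b mutant and wild type, and gave no UMI in the cells marked by interneuron genes. tlx3b stood at 237 and 261 CPM in sensory neurons and gave no UMI in those cells either. Of those cells only 5 of 13 in stag2b mutant and 6 of 10 in wild type had a UMI of elavl3. Among sensory cells 134 of 138 and 118 of 128 had one. The absence of gng3 and tlx3b is thus not shown to be a trait of interneurons.

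neurod4 stood lower in sensory neurons than in neurons of no subtype and in the few motor cells. It stood at 35.3 CPM in stag2b mutant and 26.0 CPM in wild-type sensory neurons (19.5 to 33.9 in wild type), against 109 and 106 CPM in neurons of no subtype. In the cells marked by interneuron genes it stood at 57.2 CPM in stag2b mutant and 33.4 CPM in wild type. The wild-type interval there (12.3 to 72.7) overlaps that of sensory neurons. So does the stag2b mutant interval (30.4 to 97.8, against 27.5 to 44.7 in sensory neurons). In the 3 motor cells of each library it stood at 1331 and 351 CPM (52 and 19 UMIs), and elavl4 had no UMI there. With 3 cells each, these motor values are of those cells alone. elavl3 stood at 4935 and 4649 CPM in sensory neurons of stag2b mutant and wild type, and at 1073 and 2328 CPM in their cells marked by interneuron genes.

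Among the 9 genes, the genotype comparison in neurons turned on elavl4 and stmn1b, which were lower in stag2b mutant. Of the genes with a course most like the 9, vim (1268 and 1964 CPM in stag2b mutant and wild type) and map1aa (189 and 298 CPM) were lower too. zgc:158291 was not (287 and 264 CPM). elavl4 stood at 266 CPM (interval 248 to 284) in stag2b mutant and 423 CPM (400 to 447) in wild type, a log2 ratio of -0.67 (-0.80 to -0.54). stmn1b stood at 772 and 1208 CPM, a log2 ratio of -0.65 (-0.72 to -0.57). Single neurons overlapped widely: the median cell had 4 UMIs of stmn1b in stag2b mutant and 7 in wild type, and the highest had 64 and 116. elavl4 and stmn1b were the only members past 1.5-fold among the 8 at 50 CPM or more, where 14.5% of all 3154 such genes were past it in either direction, 5.29% lower and 9.23% higher. The median gene of the class stood at 0.07. neurod4 was the only one of the 8 that was higher in stag2b mutant, at 74.9 CPM against 51.3 CPM (log2 ratio 0.55, 0.25 to 0.85). The other 5 were lower by less, from isl1 (314 and 395 CPM, -0.33) through tlx3b (-0.30), gng3 (-0.28) and ebf2 (-0.20) to elavl3 (3473 and 3692 CPM, -0.09), and the median over the 9 genes was -0.28. These smaller values depended on the gate: without snap25a, stmn4 and mllt11 in it, a choice made after seeing the data, the ratio was 0.22 for elavl3, 0.11 for ebf2, 0.038 for gng3 and 0.0076 for isl1, and with neurons gated by elavl3 it was -0.18 for neurod4. The number of members past 1.5-fold was 6 with a gate of at least 2 genes and 1 with a gate of at least 4. The share of all genes past that fold is not given under these gates, so the counts are not a result about the members.

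Within sensory neurons elavl4 and stmn1b were again lower in stag2b mutant, and most of the other genes lay closer to 0. elavl4 stood at 428 CPM in stag2b mutant and 603 CPM in wild type (log2 ratio -0.50, -0.62 to -0.37), and stmn1b at 1179 and 1613 CPM (-0.45, -0.53 to -0.37). Neither passed 1.5-fold, where 14.1% of 3089 genes did, 4.56% lower and 9.55% higher. elavl3 was slightly higher in stag2b mutant (0.09), near the median gene of these cells (0.08). The values for gng3, isl1, tlx3b and ebf2 lay between -0.14 and -0.06. The interval of isl1 (-0.27 to -0.01) was below 0, and that of tlx3b (-0.32 to 0.04) spans 0 but was below the median gene. neurod4, under 50 CPM there, had a ratio of 0.44 with an interval that spans 0 (-0.09 to 0.98). The ratios of elavl4 and stmn1b were below 0 in each of the 11 alternatives run on them, from -1.22 to -0.35 and from -1.16 to -0.33. In the mixed cells set aside from the neuron gate, however, elavl4 stood higher in stag2b mutant, at 143 CPM against 119 CPM in wild type. stmn1b was lower there too, at 312 and 398 CPM. With 1 library per genotype, variation between pools of embryos is not in these intervals.

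**Figure D5:**
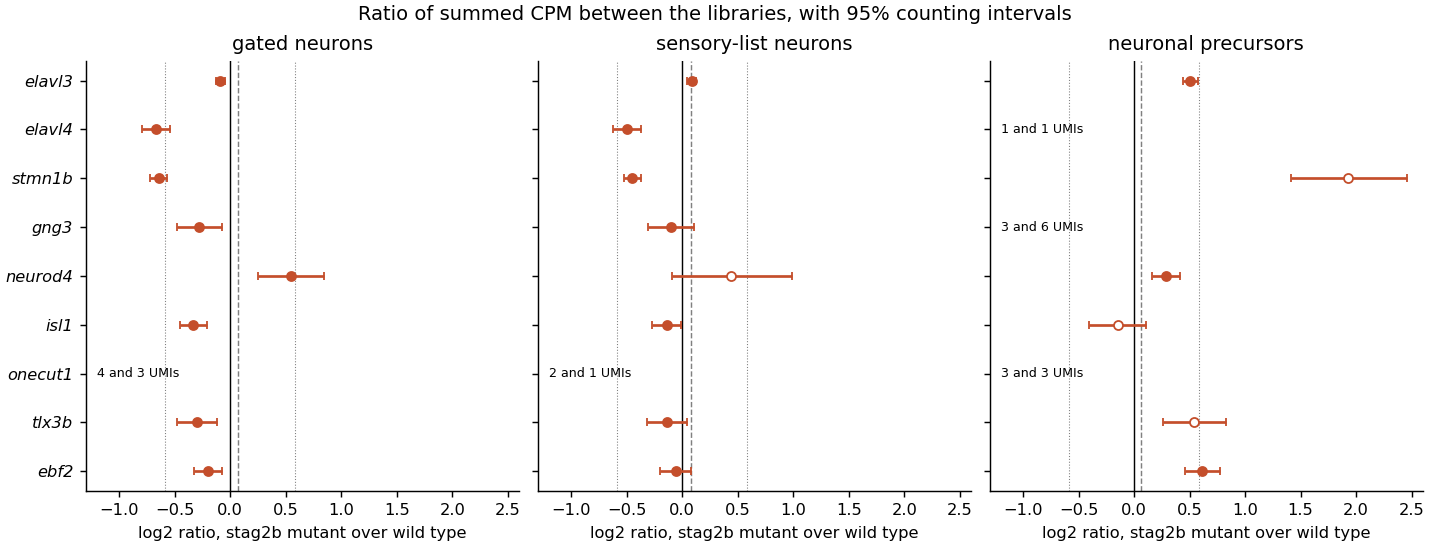
Log2 ratio of summed CPM, stag2b mutant over wild type, for each of the 9 genes in gated neurons, sensory-list neurons and neuronal precursors, with 95% intervals for counting error. Open symbols mark genes under 50 CPM in both libraries, genes with under 20 UMIs are given by their UMIs in stag2b mutant and wild type, the dashed line is the median gene and the dotted lines are 1.5-fold. elavl4 and stmn1b lie left of 0 in both neuron panels, and stmn1b lies at 1.92 in precursors.

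In neuronal precursors elavl3, neurod4, ebf2, stmn1b and tlx3b stood higher in stag2b mutant. elavl3 stood at 562 CPM in stag2b mutant and 397 CPM in wild type (log2 ratio 0.50, 0.44 to 0.57), neurod4 at 146 and 120 CPM (0.29, 0.16 to 0.41) and ebf2 at 110 and 71.9 CPM (0.61, 0.46 to 0.77). These were the 3 members at 50 CPM or more, and ebf2 passed 1.5-fold, where 11.7% of 3062 genes passed it in either direction, 5.75% higher and 5.98% lower. Below 50 CPM, stmn1b stood at 19.5 CPM in stag2b mutant (139 UMIs) and 5.14 CPM in wild type (42 UMIs), a log2 ratio of 1.92 (1.42 to 2.46), and tlx3b at 33.1 and 22.8 CPM (0.54, 0.26 to 0.82). isl1 stood at 31.1 and 34.5 CPM, with an interval that spans 0 (-0.41 to 0.11). The values of stmn1b, elavl3, ebf2 and tlx3b thus had opposite signs in precursors and in gated neurons, and this contrast between the classes was not tested. Of these genes, only stmn1b had an interval below 0 in sensory neurons (-0.53 to -0.37). There elavl3 was above 0 (0.09), and the intervals of ebf2 (-0.20 to 0.08) and tlx3b (-0.32 to 0.04) span 0. The neuron signs of elavl3 and ebf2 also turned under other gates.

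Other genes differed in precursors as well. neurog1, the proneural factor of sensory neurons and one of the genes that define the class, stood at 209 CPM in stag2b mutant and 323 CPM in wild-type precursors (log2 ratio -0.63, -0.72 to -0.54), and pcna at 490 and 719 CPM. ebf3a, a relative of ebf2 with 2 rows in the tables, stood at 140 and 81.5 CPM on the row that reached 50 CPM (0.78, 0.64 to 0.92). Of the 11 rows of the list of differentiation genes at 50 CPM or more in precursors, this row was 1 past 1.5-fold upwards and neurog1 was 1 past it downwards, around a median of 0.06. mllt11, a gene of the neuron gate, stood at 51.1 CPM in stag2b mutant and 21.4 CPM in wild-type precursors (1.26, 0.99 to 1.52). It passed 50 CPM through stag2b mutant alone, so the filter set its direction. Other genes of that gate had few UMIs and leaned both ways, such as snap25a (32 and 1 UMIs) and cplx2 (5 and 17 UMIs on its higher row). Genes of the notochord list summed to 94.0 CPM in stag2b mutant and 277 CPM in wild-type precursors, against 2107 and 2470 CPM in notochord cells. Mixed cells were set aside in 332 of 813 stag2b mutant and 493 of 990 wild-type cases, and with these cells kept the ratios of elavl3, neurod4 and ebf2 in precursors were 0.91, 0.83 and 1.15. With gates from thinned counts those of stmn1b and tlx3b were 0.65 and 0.031. The part of gate composition in these ratios was not tested.

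In neural progenitors only elavl3 reached 50 CPM, and in stag2b mutant alone, so the filter set its direction. It stood at 63.0 CPM in stag2b mutant and 44.4 CPM in wild type (log2 ratio 0.50, 0.39 to 0.61), under the 1.5-fold line, past which 10.0% of 2859 genes stood, 6.09% higher and 3.92% lower. elavl3 also gave 215 UMIs in 3381 stag2b mutant and 75 UMIs in 2863 wild-type presomitic cells, which should lack it (interval of the log2 ratio 1.11 to 1.89), and in epidermis it stood at 2.40 and 1.12 CPM (0.42 to 1.80). In somite cells, tailbud progenitors, neural crest and notochord the interval of the elavl3 ratio spans 0. neurod4 (88 and 25 UMIs, 2.82 and 1.06 CPM) and ebf2 (139 and 60 UMIs, 4.46 and 2.55 CPM) had ratios with intervals above 0 at low levels, and gng3 (3 and 14 UMIs) had one below 0 (-5.07 to -0.79). Summed over all kept cells, elavl3 differed between stag2b mutant and wild type by a log2 ratio of 0.13.

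Of the list of 32 differentiation genes, 22 rows reached 50 CPM in neurons, 2 of which were past 1.5-fold downwards and 0 upwards in stag2b mutant against wild type, with a median of -0.12. Of all genes, 5.29% were past the fold downwards and 9.23% upwards (14.5% in either direction). The 2 list genes were insm1a, a zinc finger factor of differentiating neurons (73.0 and 186 CPM in stag2b mutant and wild type, log2 ratio -1.35), and neurog1 (175 and 289 CPM, -0.72). In sensory neurons insm1a stood at 109 and 231 CPM (-1.09, -1.33 to -0.85). The related gene insm1b, also on the list, was not lower in gated neurons, at 73.7 and 64.8 CPM (0.18, -0.10 to 0.47). Of the 8 stage genes, sox2, sox3, sox19a, mki67 and top2a were past 1.5-fold upwards in gated neurons, and in sensory neurons sox3 stood at 60.9 and 26.9 CPM in stag2b mutant and wild type (log2 ratio 1.18), sox19a at 50.2 and 33.2 CPM (0.60) and mki67 at 75.8 and 53.4 CPM (0.50), so that sox3 and sox19a were past 1.5-fold there too. sox2 and top2a were under 50 CPM in sensory neurons, with intervals that span 0. The filter set the direction of sox3 and sox19a in sensory neurons and of sox2 and top2a in gated neurons, which passed 50 CPM through stag2b mutant alone.

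Outside the neural classes, elavl4 was found in epidermis. It stood at 8.78 CPM in stag2b mutant epidermis (201 UMIs in 109 of 1447 cells) and 13.2 CPM in wild-type epidermis (341 UMIs in 156 of 1466 cells). After thinning, 3.74% of stag2b mutant (2.78 to 4.92) and 5.28% of wild-type epidermal cells (4.12 to 6.66) had a UMI, against 0.0863% and 0.100% of somite cells. elavl3 was seldom found with it: of epidermal cells with at least 2 UMIs of elavl4, 0 of 37 in stag2b mutant and 2 of 68 in wild type had elavl3, and stmn1b gave no UMI in any elavl4-positive epidermal cell. In neurons, by comparison, the elavl4-positive cells nearly all had elavl3 (50 of 51 and 51 of 51). The elavl4-positive epidermal cells had less of the keratin gene krt4, 2255 CPM in stag2b mutant and 3453 CPM in wild type, against 5691 and 7501 CPM in the other epidermal cells. tp63, the epidermal master regulator, was similar, at 583 and 371 CPM in elavl4-positive cells of stag2b mutant and wild type against 530 and 386 CPM in the others. The log2 ratio of elavl4 between the genotypes in epidermis was -0.59, and it stayed between -0.82 and -0.53 in the 10 alternatives run on it.

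isl1 also gave UMIs in intermediate mesoderm. There were 25 UMIs in 100 stag2b mutant cells (17.4 CPM, 11.3 to 25.7) and 4 UMIs in 62 wild-type cells (4.04 CPM, 1.10 to 10.3). isl1 was found in 16 stag2b mutant and 2 wild-type cells, or in 6 of 96 and 2 of 61 after thinning, where the exact intervals overlap (6.25%, 2.33 to 13.1, in stag2b mutant and 3.28%, up to 11.3, in wild type). Somite cells gave 0.353 CPM of isl1 in stag2b mutant and 0.159 CPM in wild type. tlx3b in epidermis stood at 1.57 CPM in stag2b mutant and 3.18 CPM in wild type. Apart from these, elavl3 stood at 15.7 and 15.2 CPM in tailbud progenitors and at 8.72 and 7.68 CPM in neural crest of stag2b mutant and wild type, and was at 3 CPM or more also in notochord and in stag2b mutant presomitic cells. All other values of the 9 genes outside the neural classes were under 3 CPM.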

How the data were processed

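Single-cell RNA-seq of pooled tailbuds gave 1 library per genotype. The authors deposited UMI counts per gene and cell barcode, per the labels made with Cell Ranger 7.1.0 on GRCz11; the study's methods state that intronic reads were counted, on a curated zebrafish annotation. From these counts, cells with at least 200 genes, at most the 98th percentile of genes per library and at most 15% mitochondrial UMIs were kept, and Scrublet doublets (Scanpy 1.11.5) were removed. The minimum of genes and the mitochondrial limit are those of the study, which describes its upper limit on genes in relation to the median and used another doublet caller (Solo). The study also left out genes found in fewer than 3 cells, a filter that was not applied here.

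UMIs were summed per gated class and library and divided by the class total (CPM). A cell that passed gates of more than 1 tissue was mixed and left out of the classes. Intervals are exact Poisson for levels, exact conditional binomial for ratios and Clopper-Pearson for shares, at 95%. Genes were read against a fold of 1.5 at 50 CPM or more in the higher group, and for detection cells were thinned to 5000 UMIs. There was no test between genotypes, as there was 1 library each. The interval for ratios was tested on simulated summed counts of neurons, which hold counting error alone. The intervals for levels and shares were not tested in this way. Every member is described. Other genes were named from lists of differentiation, stage and gate genes, by likeness of course across classes, or beside a result that they touch. The members and lists were chosen with earlier results of these data known. No sequences are shown.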

Additional observations from a re-analysis of the deposited data

How the results depend on the processing

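There were 15 alternatives, 2 of them chosen after seeing the data (a neuron gate without snap25a, stmn4 and mllt11, and sensory-list neurons only). Of 165 ratios of single members, 105 stayed within the counting interval of the first value, 53 left it, and 7 whose first interval was clear of 0 changed sign. No paired analysis was possible because each genotype had 1 library.

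The neuron share of stag2b mutant minus wild type was -0.12 percentage points, but 0.52 with a gate of at least 2 genes, 0.37 with neurons gated by elavl3 and 0.19 with mixed cells kept. The median log2 ratio over the 9 genes in neurons, -0.28, was -0.85 at 2 genes, -0.080 at 4 genes, -0.60 with the elavl3 gate, -0.45 with TMM library sizes (a shift of -0.17 for every gene), -0.12 as a mean over cells, 0.038 without snap25a, stmn4 and mllt11 and -0.10 in sensory neurons. Members past 1.5-fold, 2 at first, were 6 at 2 genes, 1 at 4 genes, 1 with mixed cells kept, 1 without the 3 gate genes and 0 in sensory neurons. The share of all genes past that fold is given for the first gate (14.5%) and for sensory neurons (14.1%) only. The other counts thus have no share to be read against. With the elavl3 gate 5 members were past 1.5-fold above neural progenitors in stag2b mutant. That gate uses elavl3, itself 1 of the 9, so the direction of elavl3 is set by it. The share of all genes under it is not given.

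The share of neurons with at least 3 members, 67.6% in stag2b mutant and 75.2% in wild type, was 28.9% and 44.0% at 2 genes, 96.2% and 92.3% at 4 genes, 16.7% and 21.6% with the elavl3 gate, 49.3% and 58.8% with mixed cells kept, 86.2% and 95.2% with gates from thinned counts, 58.4% and 66.4% at 2 UMIs per gene, and 93.1% and 89.8% in sensory neurons. Without the 3 gate genes it was 88.6% in stag2b mutant and 81.5% in wild type. The sign turned for elavl3 at 4 genes (0.10), without the 3 gate genes (0.22) and in sensory neurons (0.086), for neurod4 with the elavl3 gate (-0.18), and without the 3 gate genes for gng3 (0.038), isl1 (0.0076) and ebf2 (0.11). onecut1, with a first ratio of 0.36 whose interval spans 0, was negative at 2 genes (-0.94), with the elavl3 gate (-0.60) and with mixed cells kept (-0.79). The causes were not tested. The ratios of elavl4 and stmn1b in neurons and of elavl3, neurod4, ebf2, stmn1b and tlx3b in precursors kept their sign in all alternatives run on them, but not their size: in precursors elavl3 lay between 0.40 and 0.91, neurod4 between 0.18 and 1.31, ebf2 between 0.50 and 1.29, stmn1b between 0.65 and 2.57, and tlx3b between 0.031, with gates from thinned counts, and 2.06. Depth limits onecut1, with 4 UMIs in stag2b mutant and 3 in wild-type neurons, and the 3 motor cells of each library.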
